A study of Caenorhabditis elegans with 20 samples.

Results

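Sperm genes of Caenorhabditis elegans were followed through 7 groups of total RNA and immunoprecipitated RNA from whole worms. Genes were taken where the array's gene annotation gave a symbol of the msp, ssp, spe or sss series, or gsp-4, and each gene was read from its brightest spot by the mean over all samples. This gave 59 genes on 65 spots, of 16378 named genes on the array. They were 15 major sperm protein genes (msp), 12 ssp genes, 29 spe genes, 2 sss genes and gsp-4. A filter on low signal kept 45 of them, namely all 15 msp genes, 10 ssp, 17 spe, both sss genes and gsp-4, out of 11812 genes that passed in the whole series.

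Worms of all samples were of mixed stages. The 20 samples came from 3 strains. Wild-type N2 worms gave AIN-1 immunoprecipitates (IP), preimmune serum IP and total RNA. A line with AIN-2::GFP integrated as a single copy gave AIN-2::GFP IP and total RNA, and an injection line in which the ain-2 promoter drives GFP alone gave GFP IP and total RNA. There were 2 samples of N2 total RNA and 3 of every other group, which the series text calls independent biological replicates. Each transgenic group rests on 1 line, so a line and its transgene cannot be told apart. AIN-1 and AIN-2 are the worm's GW182-type proteins, which bind the Argonaute proteins of the microRNA-induced silencing complex, so RNA recovered with them is read as RNA held by that complex. The question was which mRNAs these immunoprecipitates hold above the total RNA of the strain and above the control IP.

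Major sperm proteins are small cytoskeletal proteins that polymerize to drive the crawling of nematode sperm, and they also act as signals to the oocyte and the gonad sheath. They are made during spermatogenesis, which hermaphrodites complete around the last larval stage and males continue as adults, from a family of nearly identical genes. The spe genes were named for mutants with defective sperm and act in sperm formation, activation or fertilization. gsp-4 encodes a sperm form of protein phosphatase 1. Because copies of the msp family are so alike, a spot named for 1 msp gene may also bind mRNA of its relatives, and values of single msp genes are uncertain for that reason. In RefSeq (WBcel235), 35 genes carry an msp symbol, and 14 of the 15 on the array have a gene length of 384 bases. The msp genes of the array lie on chromosomes II (6 genes) and IV (9 genes). Of the other sperm genes 18 lie on chromosome I, 15 on IV, 6 on V, 3 on III and 2 on II. None lies on X, which holds 13.6% of the named genes of the array.

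The deposited intensity of a spot is its signal divided by the mean of the sample. Normalized signals below are in units of that mean, after quantile normalization and with a floor of 0.0187. A spot was counted as above background where it passed the median plus 2 median absolute deviations of 1276 chemoreceptor spots of the same sample. The samples differed widely in brightness. Their mean signal was 241 to 907 scanner units in the total RNA, AIN-1 IP and AIN-2::GFP IP samples. It was 9, 40 and 47 units in the preimmune IP samples and 370, 46 and 12 units in the GFP IP samples, so many values of these control IPs stand near background.

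The msp genes split the samples by strain. The median normalized signal of the 15 genes was 0.709 and 0.618 in N2 total RNA, against 3.63, 4.59 and 8.61 in AIN-2::GFP total RNA and 6.61, 5.82 and 11.4 in promoter GFP total RNA. It was 0.554, 0.644 and 0.508 in AIN-1 IP, and 0.0187, 0.521 and 0.558 in preimmune IP. It was 1.45, 1.43 and 1.75 in AIN-2::GFP IP, and 7.37, 4.63 and 8.09 in GFP IP. All samples from N2 worms thus lay below all samples from the transgenic lines, and AIN-2::GFP IP stood between them, below both transgenic total RNA groups and GFP IP. Replicate 3 was the highest of both transgenic total RNA groups, and the ranges of those 2 groups overlapped. In scanner units the msp median of GFP IP was 2422, 210 and 85, above the mean signal of each of those samples, while that of preimmune IP was -1, 19 and 17.

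**Figure D1:**
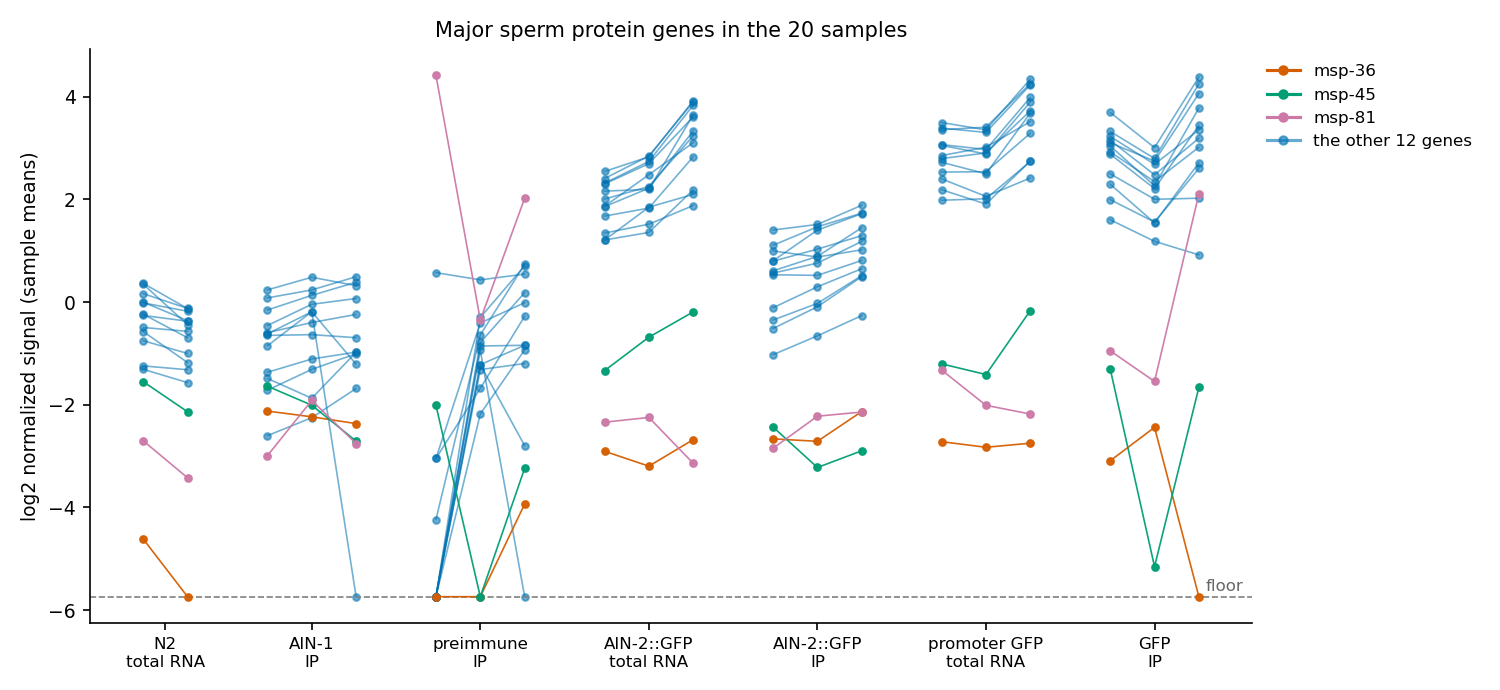
Normalized signal (log2, in sample means) of each of the 15 major sperm protein genes in the 20 samples. Points joined by a line are 1 gene within a group, in the order of the replicate numbers, and the dashed line is the floor. The blue genes move as a band that is low in the N2 samples and high in the transgenic total RNA and GFP IP, while msp-36, msp-45 and msp-81 depart from it.

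In total RNA most msp genes had lower values in N2 than in the transgenic lines, and 3 of 15 passed the test. For msp-76, the msp gene with the highest mean signal over all samples, the values were 1.27 and 0.737 in N2, then 5.83, 7.12 and 15.2 in AIN-2::GFP and 11.3, 10.2 and 20.3 in promoter GFP. No N2 sample reached the transgenic range. The log2 difference was -3.46 ± 0.47 (SE; 2 N2 samples against 6 transgenic samples; limma, adjusted p = 0.00332). The log2 difference was -2.83 ± 0.61 (SE) for msp-78 and -2.99 ± 0.64 (SE) for msp-32 (limma, adjusted p = 0.0362 and 0.0373). These 3 of 15 msp genes passed as lower, where 0.385% of all features passed as lower and 0.655% as higher. All 15 differences were below 0, with a median of -3.27 against -0.16 over all features tested, which is a median 9.66-fold lower level in N2. The values of 14 msp genes in N2 did not overlap those of the transgenic samples and lay below them. The share of all features for which that held was 24.1%. The exception was msp-81, with 0.154 and 0.0932 in N2 and 0.113 to 0.399 in the transgenic samples.

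The number of msp genes that passed depended on 1 dim library. In preimmune IP replicate 1, with a mean signal of 9 scanner units, 13 of the 15 msp spots were not above background while msp-76 read 1.49 and msp-81 read 21.4, and all 20 samples share the fit's estimate of spread. Without that library 11 of the 15 msp genes passed as lower in N2, with 631 of 12222 features called in either direction. Without all preimmune and GFP IP samples 12 passed (2277 features in all), and in a fit of the total RNA samples alone 13 did (2939 features). Leaving out 1 N2 sample, so that the other is assumed to vary like the rest of the groups, left 1 msp gene without N2 replicate 1 and none without N2 replicate 2. The msp median kept its sign under both other scalings, at -2.98 with the deposited mean scaling (0.16 over all features) and -2.88 with cyclic loess (-0.01 over all features). Under mean scaling msp-78 and msp-32 missed the threshold (limma, adjusted p = 0.0734 and 0.0643). With the replicate block as a fixed factor msp-32 missed it too (limma, adjusted p = 0.051).

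No gene of the marker lists passed in this comparison. The summed signal of 6 vitellogenin genes, which adult hermaphrodites express, was 973 to 1190 in N2 and 336 to 1170 in the transgenic total RNA. Larval cuticle genes (6 of 7 tested, with dpy-13 not above background in any sample) summed to 20.7 to 24.6 in N2 and 10.4 to 16.6 in the transgenic lines. Adult cuticle genes (4 of 4) summed to 8.73 to 10.2 and 2.4 to 5.05, and intestine genes (5 of 5) to 53.4 to 53.6 and 36.6 to 67.4. Muscle and cuticle sums were thus higher in N2, and yolk and intestine sums overlapped. Bright genes weigh most in a sum, and single genes gave another picture. Adult cuticle genes had 2 differences above 0 and 2 below, with a median of -0.16, as over all features. Yolk genes had 6 above 0 and 0 below, with a median of 0.56. Above and below 0 lay 5 and 1 larval cuticle genes, 4 and 1 muscle genes, and 2 and 3 intestine genes. Body wall muscle genes (5 of 5) summed to 28 to 28.5 in N2 and 9.85 to 17.5 in the transgenic lines. Oocyte and egg genes (19 of 20 tested, chs-1 not above background in any sample) summed to 135 to 150 in N2 and 149 to 188 in the transgenic lines. Germline genes (13 of 13) summed to 8.03 to 8.52 and 10.9 to 13.8, lower in both N2 samples. Male somatic genes (7 of 10 tested, cil-7 and cwp-3 not above background in any sample) were near background, at 0.257 to 0.399 and 0.352 to 0.628. The summed msp signal was 8.31 to 10.7 in N2 and 47.9 to 156 in the transgenic lines. The part of stage, of males or of germline size in the msp difference was not tested, and in whole worms fewer sperm cells and less RNA per cell cannot be told apart.

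The other sperm genes leaned the same way with smaller differences. None of the 30 tested passed in limma (8 had an unadjusted p under 0.05, as did 12.9% of all features), 26 of 30 differences were below 0 and the median was -0.95. In N2, 16 of them lay below the transgenic samples without overlap and 3 above, where 24.1% and 18.4% of all features did. ssp-11 read 0.450 and 0.283 in N2, then 1.2, 1.29 and 1.84 in AIN-2::GFP and 2.19, 1.64 and 2.69 in promoter GFP total RNA. The groups did not overlap, and the log2 difference of -2.28 ± 0.58 (SE; limma, adjusted p = 0.0773) missed the threshold. It passed without preimmune IP replicate 1 (adjusted p = 0.00743). ssp-33 had a log2 difference of -2.25 ± 0.58 (SE; limma, adjusted p = 0.0790), but 1 of its 8 total RNA values was above background. spe-4, which encodes a presenilin of the membranous organelles of spermatocytes, read 1.52 and 1.29 in N2 and 1.04 to 1.27 in the transgenic lines, a log2 difference of 0.29 ± 0.40 (SE). spe-44, a transcription factor of the spermatogenesis program, was above background in none of the 8 total RNA samples.

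**Figure D2:**
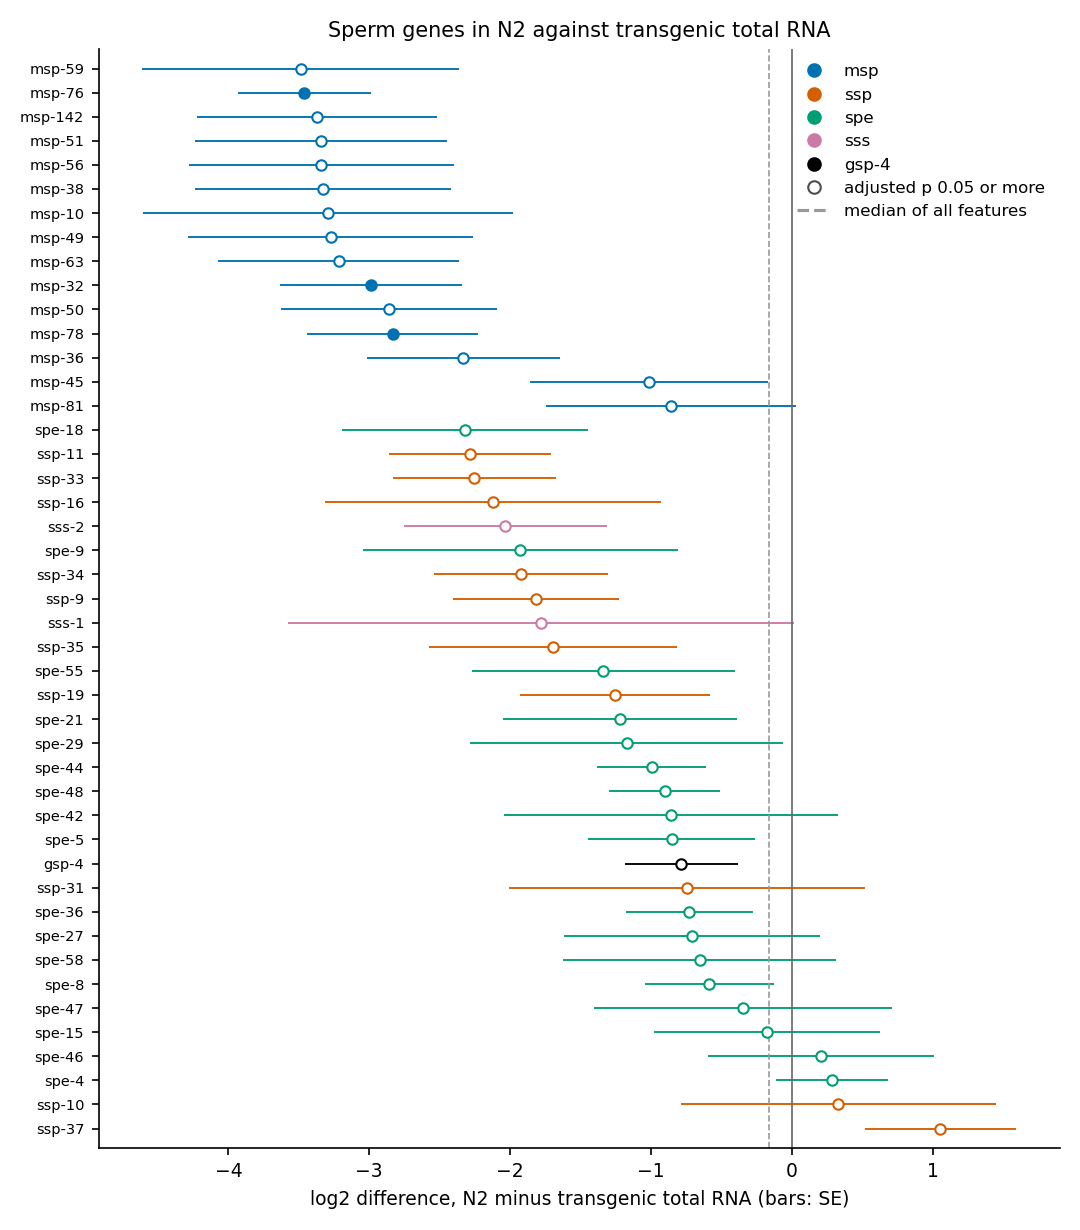
Log2 difference of N2 total RNA (2 samples) minus transgenic total RNA (6 samples) for the 45 sperm genes tested, with SE bars. Filled points passed at an adjusted p under 0.05 and the dashed line is the median of all features; the msp genes, in blue, lie below all other genes, except msp-45 and msp-81, and msp-76, msp-78 and msp-32 passed.

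The 2 transgenic lines were compared with each other. Of the 15 msp genes 14 lay below 0 in AIN-2::GFP total RNA relative to promoter GFP total RNA, with a median of -0.66 against -0.04 over all features. None of the 45 sperm genes passed in limma, and none had an unadjusted p under 0.05 (0.36% of all features did). Over all features 0% passed as higher and 0.00818% as lower. msp-76 had a log2 difference of -0.59 ± 0.48 (SE) and msp-63 of -0.76 ± 0.87 (SE).

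A further list of spermatogenesis genes was read beside the members. Of 39 such genes on the array 32 were tested, and 5 passed as lower in N2 and none as higher. The median was -1.70, against -0.16 over all features, of which 0.385% passed as lower and 0.655% as higher. spch-3, which encodes a sperm chromatin protein, was above background in neither N2 sample and in all 6 transgenic samples, at least 3.82-fold lower in N2 (limma, adjusted p = 0.0132). msrp-2 was at least 3.54-fold lower (limma, adjusted p = 0.0293). nspd-3, of a nematode-specific peptide family, differed by -2.50 ± 0.51 log2 units (SE; limma, adjusted p = 0.0303). Their summed signal was 17.2 to 18.6 in N2 and 15 to 20.3 in the transgenic lines, so the sums overlapped although 27 of 32 differences were below 0. ssq-1 made up most of the N2 sum, at 12.9 and 12.4 in N2 and 6.36 to 9.6 in the transgenic lines, and ran opposite to most of the list.

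Between AIN-1 IP and N2 total RNA the msp genes differed in both directions. Their log2 differences ran from -1.89 to 2.87, with 10 above 0 and 5 below, and a median of 0.09 against 0.11 over all features. For msp-76 the values were 1.18, 1.4 and 1.25 in AIN-1 IP against 1.27 and 0.737 in N2 total RNA. For msp-51 they were 1.06, 1.18 and 1.41 against 1.12 and 0.918, and for msp-59 0.898, 1.09 and 1.31 against 1.00 and 0.778. The groups overlapped for each of these 3 genes. msp-78 read 0.357, 0.273 and 0.508 in AIN-1 IP against 0.989 and 0.884, and msp-50 read 0.165, 0.21 and 0.311 against 0.594 and 0.5. These genes and msp-32 were lower in AIN-1 IP without overlap, as were 31% of all features, and none of the 3 passed the test. The sign of the median follows the scaling. Scaling to the mean as deposited gave -0.67 for msp and -1.02 for all features, and cyclic loess gave -0.42 and 0.08.

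One msp gene passed as higher in AIN-1 IP, where 6.1% of all features passed as higher and 5.65% as lower. msp-36, the msp gene with the lowest mean signal, read 0.229, 0.212 and 0.194 in AIN-1 IP and was above background in neither N2 sample. The level in AIN-1 IP exceeded N2 at least 1.98-fold (limma, adjusted p = 0.0245), and the call was lost under mean scaling (adjusted p = 0.165). The other spot of msp-36 was above background in none of the 20 samples, so the gene's spots disagreed. With the spots averaged the call was lost (limma, adjusted p = 0.0856).

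Among the other sperm genes 4 passed as higher in AIN-1 IP and 1 as lower, of 30 tested. Their median was 0.73, and -0.16 under mean scaling, where all features had a median of -1.02. gsp-4 read 4.11, 4.17 and 4.54 in AIN-1 IP and 0.939 and 0.559 in N2 total RNA. In scanner units it was 4078, 2896 and 4296 against 590 and 621. The groups were far apart, and the log2 difference was 2.50 ± 0.45 (SE; 3 against 2 samples; limma, adjusted p = 0.0028), a 5.66-fold higher level. spe-8, which encodes a tyrosine kinase that sperm need for activation in the hermaphrodite, read 5.57, 5.03 and 4.96 against 1.55 and 1.11. All 3 AIN-1 IP values were above both N2 values, with a log2 difference of 1.94 ± 0.52 (SE; limma, adjusted p = 0.024). In preimmune IP spe-8 ranged from 1.769 to 5.685, which overlapped AIN-1 IP. Those preimmune values were also above both N2 values, as held for 11.6% of all features.

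ssp-9 and spe-36 were weaker spots. ssp-9 read 0.382, 0.309 and 0.270 in AIN-1 IP and was not above background in N2 total RNA, a level at least 2.97-fold higher (limma, adjusted p = 0.00486, or 0.0601 under mean scaling). spe-36, a secreted sperm protein needed for fertilization, read 0.297, 0.331 and 0.302 against 0.112 and 0.0767, a log2 difference of 1.76 ± 0.51 (SE; limma, adjusted p = 0.035, or 0.456 under mean scaling). ssp-19 was not above background in any AIN-1 IP sample and read 0.117 and 0.148 in N2. It passed as lower (limma, adjusted p = 0.0348), with no bound on the size because its N2 values lie close to the limit of the AIN-1 IP samples. The ssp-19 call was lost under cyclic loess and with the floor at the 30th percentile (limma, adjusted p = 0.0855 and 0.19).

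Other spe genes of known role were measured at low signal. spe-9, a sperm surface protein needed for fertilization, was above background in 2 of 3 AIN-1 IP samples (0.161 and 0.188) and in neither N2 sample. spe-15, a myosin VI that sorts contents as spermatids bud, was above background in 1 of the 20 samples. spe-29, a small membrane protein of sperm activation, read 0.210, 0.212 and 0.170 in AIN-1 IP and was above background in neither N2 sample. spe-27, which acts in the same activation pathway, was above background in no AIN-1 IP and no total RNA sample. None of these 4 genes passed between AIN-1 IP and N2 total RNA.

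The AIN-1 IP calls varied with the fit. In earlier work on these data a set of 8 samples stood apart, made up of all AIN-1 IP and preimmune IP samples and replicate 1 of AIN-2::GFP IP and GFP IP. The labels do not name this set. It holds every AIN-1 IP sample and no N2 total RNA sample, so it runs along with this comparison. Only replicate 1 against the other replicates of AIN-2::GFP IP and GFP IP tells the set from the groups. With that set as a covariate 1 sperm gene and 568 of 12222 features passed in limma (ssp-9, adjusted p = 0.0437), while gsp-4 had an adjusted p of 0.0572 and spe-8 of 0.0739. Under mean scaling gsp-4 and spe-8 passed (limma, adjusted p = 0.00848 and 0.0296), and under cyclic loess gsp-4 passed (0.00363) and spe-8 missed the threshold (0.0929). gsp-4 and ssp-9 each passed in 19 of 20 fits that left out 1 sample, and failed without N2 replicate 2 and without N2 replicate 1, respectively. spe-8 and spe-36 failed in all 5 fits that left out an AIN-1 IP or N2 total RNA sample. A fit of the AIN-1 IP and N2 samples alone called 13 sperm genes and 4218 features in all, and a fit without the control IPs called 16 and 5245.

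Against preimmune IP, 3 of the genes above passed as higher. gsp-4 read 0.446, 1.07 and 0.825 in preimmune IP, below every AIN-1 IP value, and was 2.43 ± 0.41 (SE) higher on the log2 scale in AIN-1 IP (3 against 3 samples; limma, adjusted p = 0.00191). ssp-9 was above background in no preimmune sample, and AIN-1 IP held at least 1.38-fold more (limma, adjusted p = 0.00724). msp-36 was above background in no preimmune sample either, and was higher in AIN-1 IP (limma, adjusted p = 0.0189), with no bound because the background limit of the dim preimmune samples lies near its AIN-1 IP values. The msp-36 call was lost with its spots averaged (limma, adjusted p = 0.446). msp-81 passed as lower, at -4.23 ± 0.90 log2 units (SE; limma, adjusted p = 0.008). The msp median was 1.64, and 0.19 without preimmune IP replicate 1. Of all features 9.44% passed as higher and 2.36% as lower. With same-numbered samples as a random block the count of sperm genes was 6 in place of 4, and that of all features 2445 in place of 1443. A fit of these 6 samples alone called none of the 45 sperm genes and none of the 12222 features.

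Preimmune IP was also set against N2 total RNA. msp-81 was 4.92 ± 1.00 (SE) higher on the log2 scale in preimmune IP (limma, adjusted p = 0.00584). spe-29 exceeded N2 at least 12.99-fold (limma, adjusted p = 0.0345), a call lost without preimmune IP replicate 1 (adjusted p = 0.0886) and without either N2 sample. Its preimmune values were 8.81, 0.25 and 1.21, and without replicate 1 the bound was 5.15-fold. Over all features 3.89% passed as higher and 9.17% as lower. In scanner units msp-81 was 58, 28 and 117 in preimmune IP against 107 and 102 in N2, and spe-29 was 23, 10 and 36 against 38 and 74. In scanner units msp-81 thus spanned the N2 values and spe-29 lay below them, while the sample means were 9, 40 and 47 units in preimmune IP and 472 and 800 in N2. Both calls were lost in a limma fit of preimmune IP and N2 alone (adjusted p = 0.547 and 0.556).

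**Figure D3:**
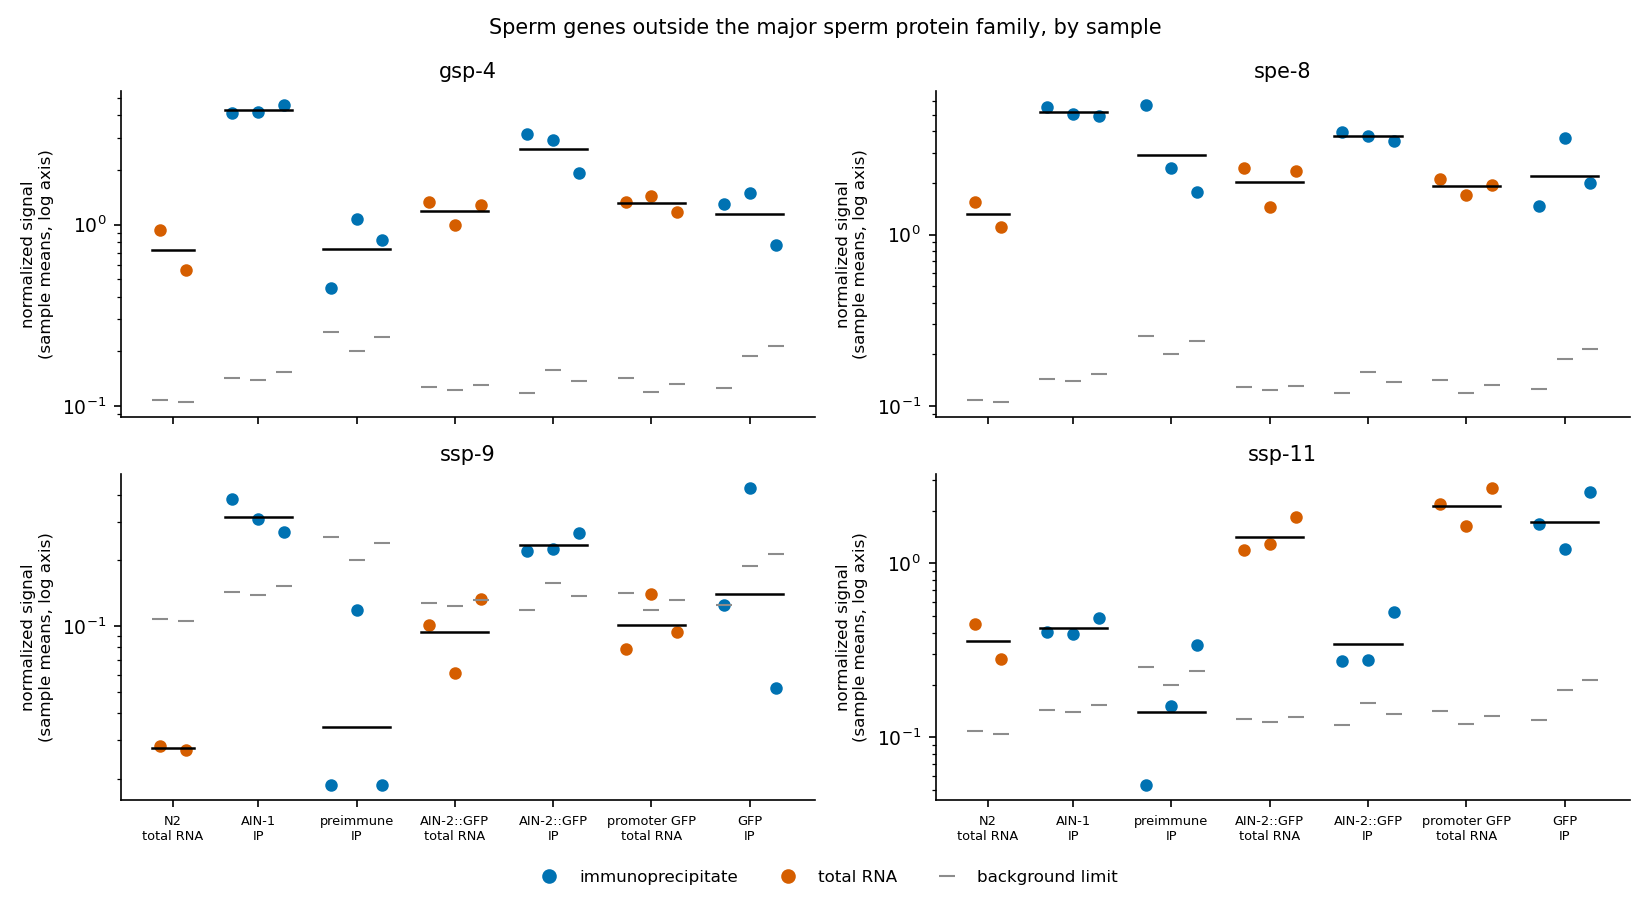
Normalized signal (log axis, in sample means) of gsp-4, spe-8, ssp-9 and ssp-11 in each sample, with the group's geometric mean as a black bar and the background limit of each sample as a grey dash. gsp-4, spe-8 and ssp-9 lie higher in the AIN-1 IP samples than in both N2 samples. For spe-8 the preimmune IP values also lie above both N2 values and overlap AIN-1 IP. ssp-11 is high in the transgenic total RNA and GFP IP, as the msp genes are.

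In AIN-2::GFP IP, 13 of 15 msp genes had lower values than in the total RNA of that line, and 1 passed the test. msp-78 read 0.926, 1.23 and 1.57 in the IP and 4.02, 4.76 and 9.45 in total RNA. No IP value reached the total RNA range, and the log2 difference was -2.22 ± 0.61 (SE; 3 against 3 samples; limma, adjusted p = 0.0434), a 4.66-fold lower level. The call held in 7 of the 20 fits that left out 1 sample. It was the only msp gene of 15 to pass, where 2.72% of all features passed as lower and 2.79% as higher. For msp-32 the values were 1.74, 2.04 and 2.45 against 4.93, 6.49 and 12.2, and for msp-76 2.65, 2.85 and 3.70 against 5.83, 7.12 and 15.2. Neither gene's groups overlapped, and their adjusted p-values in limma were 0.117 and 0.0800.

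The msp median was -1.62 against 0.00 over all features, a median 3.08-fold lower level, with 13 of 15 genes below 0. The same 13 genes had no overlap between IP and total RNA, and 25.7% of all features were lower without overlap. The exceptions were msp-36 (0.158, 0.152 and 0.228 in the IP against 0.133, 0.109 and 0.156) and msp-81 (0.139, 0.214 and 0.227 against 0.197, 0.210 and 0.113). The dim preimmune library bears on this count too. Without preimmune IP replicate 1, 11 msp genes passed as lower (2090 features in all), without all control IPs 12 (4476 features), and in a fit of these 6 samples alone 8 (3232 features). Replicate 3 was the highest msp sample of both the IP (1.75) and the total RNA (8.61) of this line.

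No msp gene passed between GFP IP and promoter GFP total RNA. The msp median was -0.25, against -0.22 over all features, with single differences from -1.78 to 1.71. None of the 45 sperm genes passed in limma (4 had an unadjusted p under 0.05, as did 10.9% of all features). Over all features 0.00818% passed as higher and 0.0164% as lower. msp-76 read 13, 8.05 and 20.9 in GFP IP against 11.3, 10.2 and 20.3 in the total RNA, and the groups overlapped. msp-50 read 3.04, 2.27 and 1.89 against 3.96, 4.04 and 6.68, the only msp gene lower in GFP IP without overlap, where 12% of all features were. The difference between the AIN-2::GFP and the GFP enrichment had an msp median of -1.40 against 0.17 over all features, with 14 of 15 below 0. No sperm gene passed for that difference in limma (3 had an unadjusted p under 0.05, as did 8.02% of all features), where again 0.00818% of features passed as higher and 0.0164% as lower. The msp difference between IP and total RNA is therefore not shown to differ between AIN-2::GFP and GFP.

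AIN-2::GFP IP was also compared directly with GFP IP, which comes from another line. The log2 difference was -2.06 ± 0.48 (SE) for msp-76 and -2.34 ± 0.59 (SE) for ssp-11 (limma, adjusted p = 0.0252 and 0.036), and neither passed under mean scaling. ssp-11 read 0.275, 0.279 and 0.525 in AIN-2::GFP IP and 1.67, 1.2 and 2.55 in GFP IP, without overlap. Of all features 1.27% passed as lower and 2.97% as higher. The msp median was -2.06 against 0.16 over all features, and 13 msp genes lay below GFP IP without overlap, which held for 10.1% of all features. Without preimmune IP replicate 1, 11 msp genes passed (1570 features in all, against 518), with same-numbered samples as a random block 3 (1038 features), and in a fit of these 6 samples alone no feature passed.

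Outside the msp genes, no sperm gene passed between AIN-2::GFP IP and its total RNA, and 8 of 30 had an unadjusted p under 0.05 in limma, as did 19.8% of all features. gsp-4 read 3.16, 2.93 and 1.93 in the IP and 1.32, 0.993 and 1.28 in total RNA, without overlap. Its log2 difference of 1.14 ± 0.40 (SE; limma, adjusted p = 0.117) missed the threshold, and passed without preimmune IP replicate 1 (adjusted p = 0.0214). spe-8 read 3.96, 3.77 and 3.51 against 2.45, 1.45 and 2.35, a log2 difference of 0.89 ± 0.46 (SE; limma, adjusted p = 0.307), again without overlap. Of all features 21.3% were higher in this IP without overlap. ssp-9 read 0.220, 0.225 and 0.267 against 0.101, 0.0611 and 0.133. ssp-11 went the other way, at 0.275, 0.279 and 0.525 against 1.2, 1.29 and 1.84, with a log2 difference of -2.04 ± 0.58 (SE). That value stood at the threshold and passed with same-numbered samples as a random block (limma, adjusted p = 0.0449).

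**Figure D4:**
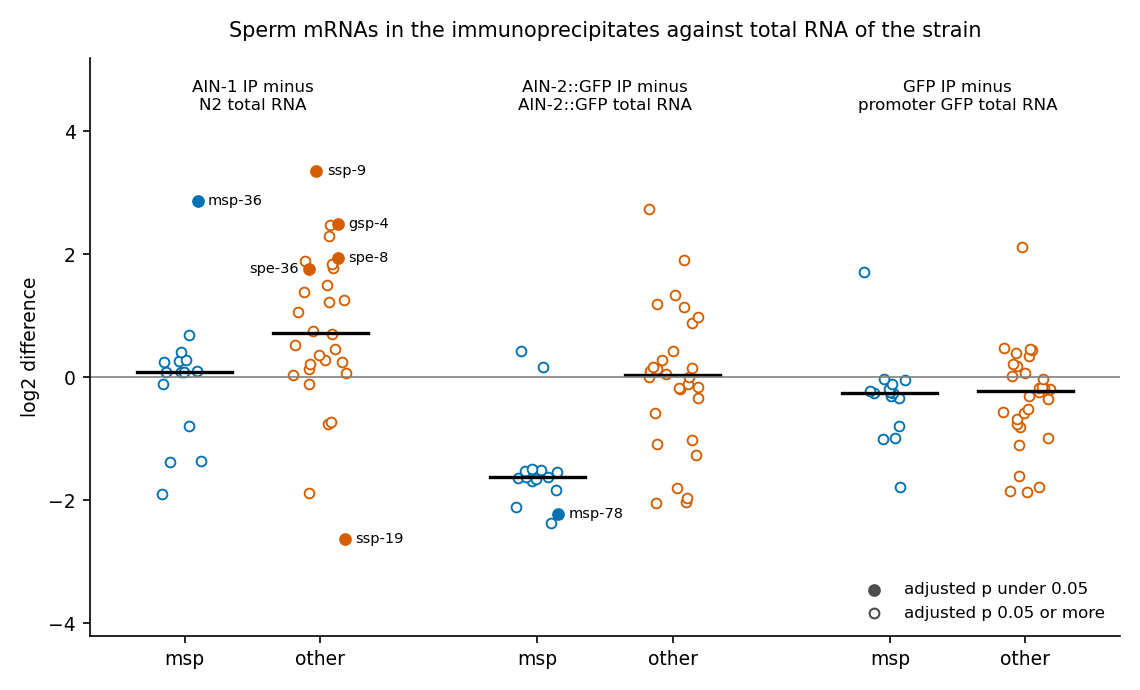
Log2 difference of each IP minus the total RNA of its own strain for the 15 msp genes and the 30 other sperm genes tested. Filled points passed at an adjusted p under 0.05, and black bars are medians. The msp median lies near 0 for AIN-1 IP and GFP IP and at -1.62 for AIN-2::GFP IP.

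AIN-1 IP and AIN-2::GFP IP, which come from different strains, were set against each other. The msp median was -1.25 in AIN-1 IP relative to AIN-2::GFP IP, against 0.02 over all features, and 12 msp genes were lower without overlap (11.6% of all features). None of the 45 sperm genes passed in limma (7 had an unadjusted p under 0.05, as did 7.01% of all features), with 0.00818% of features passing as higher and 0% as lower. When each IP was first set against total RNA of its own strain, the difference turned sign. The AIN-1 enrichment minus the AIN-2::GFP enrichment had an msp median of 1.71 against 0.17 over all features, with 14 of 15 above 0. No sperm gene passed for it in limma (7 had an unadjusted p under 0.05, as did 5.69% of all features), with 0% of features passing as higher and 0.00818% as lower.

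The msp result of AIN-1 IP differed by the total RNA used. Against the transgenic total RNA, which is of other strains, 12 of 15 msp genes passed as lower in AIN-1 IP with a median of -3.22, where 7.92% of all features passed as lower and 7.57% as higher. msp-78 then had a log2 difference of -4.18 ± 0.53 (SE; limma, adjusted p = 0.000177). gsp-4 and spe-8 passed as higher also against this total RNA, by 1.72 ± 0.35 (SE) and 1.36 ± 0.40 (SE) on the log2 scale (limma, adjusted p = 0.00424 and 0.0315). Of the other sperm genes 5 passed as lower. ssp-19 was at least 2.16-fold lower (limma, adjusted p = 0.000558) and ssp-11 had a log2 difference of -2.04 ± 0.50 (SE; limma, adjusted p = 0.0126). The remaining 3, ssp-33, ssp-34 and spe-44, were above background in no AIN-1 IP sample and in at most 1 of the 6 transgenic samples. These comparisons share the AIN-1 IP samples with those above.

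In the further list of 32 tested spermatogenesis genes, 2 passed as higher in AIN-1 IP over N2 total RNA and 1 as lower, near the 6.1% and 5.65% of all features, with a median of 0.05 against 0.11. comp-1 was above background in all 3 AIN-1 IP samples and in neither N2 sample, a level at least 2.69-fold higher (limma, adjusted p = 0.00315). elt-1, which encodes a GATA factor, differed by 2.09 ± 0.51 log2 units (SE; limma, adjusted p = 0.0168), and ssq-1 by -2.37 ± 0.59 (SE; limma, adjusted p = 0.0175). elt-1 and ssq-1 passed in the same direction in preimmune IP over N2 total RNA (limma, adjusted p = 0.0213 and 0.0251), and both comparisons share the N2 samples. None of the 32 genes passed between AIN-2::GFP IP and its total RNA, where the median was -0.66 and 24 were below 0.

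The series text defines AIN-associated genes by a t-test on percentile ranks of the ratio of IP to total RNA, at a p under 0.01 and with the control IP not passing. By limma, 3 sperm genes were higher in AIN-1 IP over both total RNA and preimmune IP (gsp-4, msp-36 and ssp-9), and 2.59% of features were. Of these, msp-36 was called from 1 of its 2 spots. By the methods' t-test 10 sperm genes were AIN-1 associated, of which msp-36 was the only msp gene, where 12.2% of features were. The others were gsp-4, spe-36, spe-47, spe-48, spe-8, ssp-16, ssp-31, ssp-9 and sss-2. Among these, ssp-16 read 0.154, 0.193 and 0.133 in AIN-1 IP. In preimmune IP it read 2.335 and 1.29 in replicates 1 and 2 and was at the floor in replicate 3. The other spot of ssp-16 was above background in no AIN-1 IP sample. Values of spe-8 in preimmune IP overlapped those in AIN-1 IP. For AIN-2, limma called none of the sperm genes (0.00818% of features). The methods' t-test called spe-8, ssp-31 and ssp-9 (8.67% of features), and none after Benjamini-Hochberg adjustment. Of the 3 genes, ssp-31 read 0.581, 7.08 and 0.475 in AIN-2::GFP IP, so replicate 2 stood apart, and its other spot was above background in no sample.

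Further sperm genes were called in no limma comparison. sss-2 read 0.0764 and 0.112 in N2 total RNA, 0.227 to 0.534 in the transgenic total RNA and 0.36, 0.334 and 0.311 in AIN-1 IP. sss-1 read 0.151 to 0.387 in the transgenic total RNA, below background in both N2 samples, and 29.1 in the dim preimmune IP replicate 1. Both sss genes were thus lower in N2 than in either transgenic line, for sss-1 by the brighter of its 2 spots. The other spot of sss-1 was above background in no sample.

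ssp-10 went against the msp genes in total RNA, at 2.47 and 2.36 in N2 and 1.64 to 2.35 in the transgenic lines, and read 0.785, 0.559 and 0.869 in AIN-1 IP and 0.867, 0.808 and 1.07 in AIN-2::GFP IP. Its values in both IPs lay below those of the matching total RNA. ssp-37 read 0.308 and 0.295 in N2 and 0.0914 to 0.229 in the transgenic lines. spe-47 read 1.18 and 0.981 in N2 and 2.32, 1.94 and 1.64 in AIN-1 IP, and spe-48 read 0.778 and 0.784 against 1.74, 1.68 and 2.2. For spe-47 and spe-48 the AIN-1 IP values lay above those of N2 without overlap, as did those of 34.6% of all features. ssp-16, spe-5, spe-18 and spe-58 stayed below 0.4 in every total RNA, AIN-1 IP and AIN-2::GFP IP sample.

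Across the 20 samples, 12 of the 15 msp genes followed each other closely. Pearson's r of each with the median of the other msp genes was 0.85 to 0.99 for these 12, and 0.40 for msp-36, 0.35 for msp-45 and -0.41 for msp-81. These are descriptions over samples that share strain, scaling and possible binding of related mRNA to 1 spot. For msp-142 both spots passed the filter and showed the strain pattern, its fainter spot reading 0.433 and 0.357 in N2 and 1.94 to 5.01 in the transgenic total RNA. The other spot of msp-45 was above background in 3 of 20 samples. The msp-10 spot read -976 scanner units in AIN-1 IP replicate 3 and -903 in preimmune IP replicate 3, and it was at the floor in both.

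Of the other sperm genes ssp-11 had the profile most like the msp median (r = 0.94), and ssp-37 the least (r = -0.62). Outside the sperm genes, the 10 genes most like the msp median over the 20 samples were F58A6.9 (r = 0.98), F54E2.1, col-142, C17H12.8, C17F4.7, dod-19, glh-2, psme-4, him-3 and hda-1 (r = 0.92). These genes were part of the limma fit, but because the same samples chose them, their p-values between groups are not given as support. glh-2 and him-3 are in the germline marker list used above, and none of the 10 is in the further list of spermatogenesis genes.

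The remaining members were at or near background. The 14 genes that the filter removed were spe-6, spe-11, spe-12, spe-19, spe-26, spe-38, spe-41, spe-43, spe-49, spe-51, spe-54, spe-57, ssp-32 and ssp-36. None of them was above background in any total RNA, AIN-1 IP or AIN-2::GFP IP sample, and the few values above it (spe-26, spe-38, spe-51 and spe-57) were in the dim preimmune or GFP IP samples. Such spots hold no measured level for spe-6 (a casein kinase of sperm formation), spe-11 (a paternal factor of the egg), spe-26 (a kelch-type protein) or spe-38 (a membrane protein of fertilization). Of the tested genes ssp-34 was above background in no sample, and ssp-33, ssp-35, spe-15, spe-21, spe-27, spe-42, spe-44, spe-46 and spe-55 in 1 to 4 of 20.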

How the data were processed

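RNA from 20 samples of mixed-stage C. elegans was hybridized to 2-colour spotted arrays after 1 round of amplification, with dye labels flipped, per the labels and series text. No source used here names the scanner, image software or background method. The deposited value is a spot intensity that the authors divided by the mean of its sample: multiplied by 1 whole number per sample, all values came out as whole scanner units within 0.001. The array has 23232 features, of which 17461 name 1 gene and 5771 none.

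From the deposited intensities, values were quantile normalized, floored at the 10th percentile of positive values (0.0187, which held 32.9% of values), put on a log2 scale and filtered on a mean above the 30th percentile, leaving 12222 features. A model of 7 group means and dye over all 20 samples was fitted with limma 3.58.1 in R 4.3.3, with Benjamini-Hochberg adjustment over all features tested and a threshold of 0.05. Figures were drawn with Python 3.11.15 and matplotlib 3.10.9. The fitting was tested on simulated data with known changes. "At least" folds were given where no sample of the dimmer group was above background. They set the brighter group's mean against the mean background limit of the dimmer group's samples, and the number of arrays limits their precision. The p-values measure the spread between the replicate samples.

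The samples' replicate numbers come from the labels. Same-numbered samples deviated together in each IP and its control, and in the transgenic total RNA groups (r of 0.199 to 0.769, against -0.45 to -0.0418 for other pairs), so a replicate block was run as an alternative (random block correlation 0.236).

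The members, gene lists and tests were chosen with earlier results of these data known. Genes were named as gsp-4, the msp genes of highest and lowest mean signal, up to 5 msp and 5 other members of smallest adjusted p per comparison and direction (or 2 where none passed), members called in both comparisons of an AIN protein, spe genes of known role, up to 3 genes of the further spermatogenesis list, and the 10 genes most like the msp median. msp-51, msp-59, msp-63, msp-45, msp-142, msp-10, the sss genes and the remaining ssp and spe genes were named after their values were seen. Alternatives changed the scaling, floor, filter, dye term, replicate block, samples and spots used. The difference of the AIN-1 and AIN-2::GFP enrichments, the non-overlap counts and the fits without the dim control IPs or with values under -100 scanner units missing were chosen after seeing the data. No sequences were analysed here.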

Additional observations from a re-analysis of the deposited data

How the results depend on the processing

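Counts of sperm genes called depended on the samples that share the fit. For N2 minus transgenic total RNA (3 called), the count was 1 under mean scaling, 5 under cyclic loess or with spots averaged, 12 with the floor at the 30th percentile, 26 with the compared groups alone and 23 without the dim control IPs, and 0 (without N2 replicate 2) to 14 (without preimmune IP replicate 1) when 1 sample was left out. For AIN-1 IP minus N2 (6), it was 1 with the set of 8 samples as a covariate, 13 with the groups alone, 16 without the dim IPs, 19 against the transgenic total RNA, and 1 to 7 with 1 sample left out. For preimmune IP minus N2 (2), it was 9 under mean scaling, 1 with the set of 8, 0 with the groups alone, 4 with spots averaged, and 0 to 8 (without preimmune IP replicate 3) with 1 left out. For AIN-1 IP minus preimmune IP (4), it was 0 with the groups alone and 2 to 9 with 1 left out. For AIN-2::GFP IP minus its total RNA (1), it was 4 under cyclic loess, 3 without the filter, 7 with the higher floor, 16 with the groups alone, 24 without the dim IPs, 2 without the dye term, with strongly negative values missing or with spots averaged, and 0 to 16 (without preimmune IP replicate 1) with 1 left out. There the replicate block gave 4 as a fixed factor and 2 as random pairs. For AIN-2::GFP IP minus GFP IP (2), it was 0 under mean scaling or with the groups alone, 4 under cyclic loess, the higher floor or the random replicate block, and 0 to 13 with 1 left out. GFP IP minus its total RNA (0) gave 0 to 1 with 1 left out. AIN-1 IP minus AIN-2::GFP IP (0) gave 1 without the filter, 6 without the dim IPs and 0 to 1 with 1 left out. The methods' t-test gave 10 AIN-1 associated genes (8 after adjustment) against 3 by limma, and 3 AIN-2 associated genes against 0. ssp-35 reversed between the transgenic lines, from below 0 to 0.03868 without AIN-2::GFP total RNA replicate 2, and its lowest value was -1.979 without replicate 3. The cause of these changes was not tested. Of 1187 single-gene values under alternatives, 1034 kept direction and call, 112 lost a call, 40 gained one and 1 reversed. Of 631 medians, 610 moved by less than the spread between replicates. Signal near background limits the weak spe and ssp spots and the control IPs.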
